A study of Homo sapiens with 12 samples.

Results

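The proteasome is the protease that degrades proteins tagged with ubiquitin. The PSM genes described here are the 48 rows of the deposited table whose symbol runs from PSMA to PSMG followed by a number, out of 26125 rows. They encode the rings of the barrel-shaped 20S core, the base and lid of the 19S cap, the activators and inhibitor that dock on the core, and the chaperones that assemble core and cap. The rule used names only and no measured value, but it was chosen with earlier results of these data known. Of the 48, 44 reached a mean of 1 FPKM (fragments scaled to transcript length and to library size) over the 12 libraries and were tested. PSMA8, PSMB9, PSMB11 and PSME2 did not.

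RNA was sequenced in 4 groups of 3 libraries from Caco-2, an established line from a human colon tumour whose cells take on features of enterocytes at confluence. The cells had been on transwell inserts for 21 days, and all groups were held in the same buffered salt solution. The groups were control (no treatment), B. subtilis CW14 (a bacterium the series title calls a probiotic), ochratoxin A (OTA, a food mould toxin) at 15 µmol/L, and OTA with CW14, called the combined group here. OTA and bacteria were added to the apical chamber. Time of exposure is not given in the sources used here. It is 1 line grown without other cell types. Nothing in the labels says that replicates were separate cultures, so p-values measure only the spread between these libraries, which may be technical. In bulk RNA, fewer cells and less RNA per cell cannot be told apart.

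In the core, an outer alpha ring on each side gates the entry of substrates, and inner beta rings hold the catalytic sites. The 19S base is a ring of ATPases that unfolds the substrate, and the lid removes the ubiquitin chain. Transcription of subunit genes is known to be raised together by NFE2L1 (also called NRF1) when proteasome activity falls short, and interferon is known to exchange the catalytic subunits PSMB5, PSMB6 and PSMB7 for PSMB8, PSMB9 and PSMB10. The intestinal epithelium renews fast and meets bacteria and toxins, and protein turnover is part of how it handles both.

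Absolute depth is unknown, since FPKM are not counts. Depth relative to control replicate 1, recovered from the steps of low values, ran from 0.470 to 1.602 and was lowest in combined replicate 3. These ratios are depth only if libraries were scaled by their total fragments, and how they were scaled is not given. That library stood apart: its residual SD over tested genes was 0.588, against 0.305 to 0.424 in the other libraries. Over the 44 PSM genes it was 0.418, against 0.119 to 0.285. Of the 12 enterocyte and epithelial markers all were in the table and 11 were tested. VIL1 lay between 19.2 and 34.6 FPKM and EPCAM between 403 and 707, while SI was at most 0.148. Summed enterocyte markers were 8528 to 9137 FPKM with CW14, 10004 to 10724 in controls, 10457 to 11517 with OTA and 10675 to 27434 in the combined group, where APOA1 alone reached 19185 in replicate 3. Of 10 markers of other cell types, PTPRC was listed at 0 in every library and CD68 made up most of their sum of 53.4 to 132 FPKM. The part of these values in the results below was not tested.

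In untreated cells, the PSM genes had a median control level of 18.5 FPKM, against 10.4 over all 12928 tested genes. The 14 constitutive subunits of the core, PSMA1 to PSMA7 and PSMB1 to PSMB7, are present in equal copies in the finished particle, yet their RNA levels were far apart. PSMB5, which carries the chymotrypsin-like site, was the highest of the 14 in each library, with 194, 180.1 and 159 FPKM in the controls. PSMA3 was the lowest in 11 libraries and PSMA5 in the remaining 1. PSMA3 had control values of 1.66, 1.23 and 1.53 FPKM. The ratio of the highest to the lowest of the 14 lay between 105 and 199 in all 12 libraries. In the alpha ring, PSMA4 (81.2 ± 12.8 FPKM, SD, n = 3 controls), PSMA1 (73.8 ± 2.05), PSMA7 (61.3 ± 8.33) and PSMA2 (43.5 ± 7.85) were far above PSMA5 (1.94 ± 0.716). PSMA2 and PSMA7 did not overlap in the controls. PSMA4 and PSMA1 did.

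Levels in the 19S cap and the chaperones were also uneven, over narrower ranges than in the core. PSMD7, a lid subunit that pairs with the deubiquitinase PSMD14, was the highest of all PSM genes in the controls at 187 ± 9.84 FPKM, and its libraries overlapped those of PSMB5. PSMD14 itself was at 22.4 ± 1.18 FPKM. The ATPases of the base ran from PSMC3 at 4.97 ± 0.406 to PSMC6 at 19.4 ± 2.10. PSMG2, which with PSMG1 starts alpha ring assembly, was at 52.1 ± 2.88, and its partner PSMG1 at 9.52 ± 1.70. PSMD10 (gankyrin), a chaperone of the base, was at 50.2 ± 4.18. The inhibitor PSMF1 (PI31) was at 30.5 ± 0.675. A level belongs to a row as deposited: 10 of the 48 rows share their locus with another row, and PSM genes also have near-identical processed copies in the genome, so how fragments were assigned bears on these levels and was not tested.

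**Figure D1:**
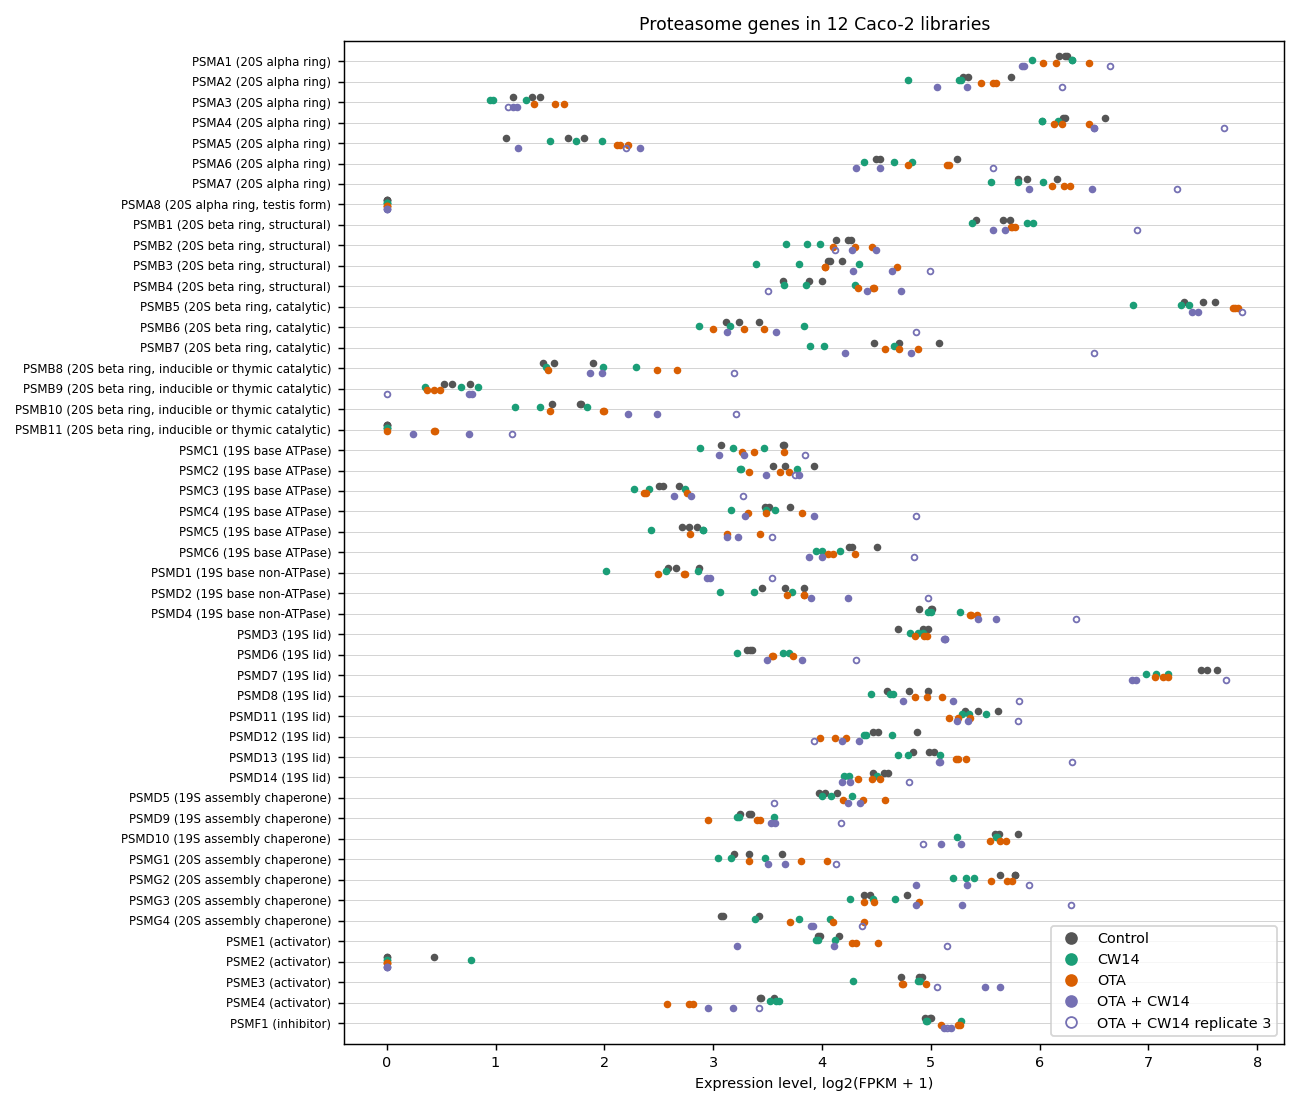
Expression level of the 48 PSM genes, as log2(FPKM + 1) on the horizontal axis, with 1 point per library coloured by group; open circles mark combined replicate 3. Genes of the alpha ring spread over most of the axis, and the base ATPases over less of it. The open circle is the right-most point of 32 of the 44 tested genes.

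Core subunits of the immune form were low. PSMB8, which replaces PSMB5, had 1.71, 2.72 and 1.90 FPKM in controls, 3.89, 2.96 and 1.75 with CW14, 1.79, 4.59 and 5.35 with OTA and 2.65, 2.95 and 8.16 in the combined group. These groups overlapped, and no test called PSMB8. Within a library PSMB8 was 0.794% to 3.53% of PSMB5. PSMB9, which replaces PSMB6, was between 0 and 0.784 FPKM in the 12 libraries and was not tested. Within a library PSMB9 was 0% to 9.94% of PSMB6. PSMB10, which replaces PSMB7, had 2.45, 1.87 and 2.43 FPKM in controls, 1.65, 1.27 and 2.59 with CW14, and 1.83, 2.98 and 2.97 with OTA. In the combined group it had 4.58, 3.64 and 8.24, above all libraries of the other groups. Within a library PSMB10 was 6.77% to 20.7% of PSMB7. That ratio was 7.51%, 8.79% and 9.70% in controls, 18.7% in CW14 replicate 3 and 16.8%, 20.7% and 9.18% in the combined group. The thymus form PSMB11 was listed at 0 in the 6 libraries without OTA, at 0.360, 0.351 and 0 with OTA and at 0.180, 0.687 and 1.22 in the combined group. These values are near the floor, with a mean of 0.233 FPKM over the 12 libraries, and PSMB11 was not tested. The testis form PSMA8 was listed at 0 in all 12.

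Levels of the activators were also uneven. PSME1 and PSME2 form the interferon-inducible cap PA28. PSME1 was at 15.4 ± 1.21 FPKM in controls. PSME2 was listed at 0 in 10 of the 12 libraries, with 0.348 in control replicate 3 and 0.706 in CW14 replicate 1. The rows of PSME1 and PSME2 share their deposited loci with EMC9 and MIR7703, and how fragments were assigned was not tested. PSME3, the nuclear PA28 gamma, was at 27.8 ± 2.07 and PSME4 (PA200), a large single-chain activator, at 10.1 ± 0.587.

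The effect of the toxin without bacteria was read from OTA against control. Few PSM genes passed the test: 1 of 44 rose, 2 fell and 41 passed no test in either direction (limma, adjusted p under 0.05). The median log2 difference was 0.08, against 0.03 over all tested genes, and 25 of 44 were above 0. Rescaling raised it to 0.18 (37 above 0, all genes 0.13) with median-centring, 0.17 (37, all genes 0.10) with upper-quartile scaling and 0.15 (34, all genes 0.090) with quantile normalization. Across all 12928 genes 17.7% were called, 4.82% higher and 12.9% lower. Differences on the log2(FPKM + 1) scale stayed under 1.5-fold in 39 of the 44 PSM genes (88.6%, against 79% of all genes), and none passed 2-fold, against 7.06% of all genes. The OTA and control libraries did not overlap in 14 PSM genes, 11 higher and 3 lower. That is 31.8%, against 50% of all genes (24.4% higher and 25.7% lower). The 3 comparisons with control share the control libraries.

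PSME4 had control values of 9.76, 9.85 and 10.8 FPKM and OTA values of 4.98, 5.87 and 6.05. All OTA libraries lay below all control and all CW14 libraries (11.0, 11.2 and 10.5). PSME4 fell by 0.75 on the log2 scale (SE 0.15, limma adjusted p = 0.00404), and this call held in all 19 alternatives tried. In the combined group it had 8.06, 6.74 and 9.70, above each OTA library and below each control, and the combined group was not called against OTA, control or CW14.

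PSMG4, a chaperone that works with PSMG3 in alpha ring assembly, had 9.72, 7.41 and 7.50 FPKM in controls and 19.9, 16.2 and 12.1 with OTA. The groups did not overlap, and the OTA libraries spread widely. PSMG4 rose by 0.87 (SE 0.22, limma adjusted p = 0.0187). The call was lost without control replicate 2 or 3 or OTA replicate 1 or 2, with an adjusted p of up to 0.0842. In the combined group PSMG4 had 14.1, 13.9 and 19.6 FPKM, called against control (log2 difference 0.87, SE 0.22, limma adjusted p = 0.0138) in all 19 alternatives. CW14 libraries had 9.43, 15.9 and 12.8 and overlapped the controls.

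PSMD12, a lid subunit, had 21.2, 21.8 and 28.3 FPKM in controls and 16.4, 14.8 and 17.6 with OTA, with no overlap. It fell by 0.51 (SE 0.16, limma adjusted p = 0.0436). This call was lost in 14 of 19 alternatives, among them all 3 rescalings and the fits without any 1 of the control or OTA libraries, with an adjusted p of up to 0.187.

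The bases before the start of these 3 genes, and of PSMD10, which fell when CW14 joined OTA, are printed to show what letters known for subunit promoters stand there. They come from RefSeq (GRCh38.p14), 250 bases on the strand of the gene, 5′ to 3′. Capitals mark the antioxidant response element core TGACNNNGC, the CCAAT box, the GC box GGGCGG, the ETS core CCGGAAG and the TATA box TATAAA, on either strand. The regions are chr2:53970994-53971243 (minus strand) for PSME4, chr6:3258697-3258946 (plus strand) for PSMG4, chr17:67366578-67366827 (minus strand) for PSMD12 and chrX:108091543-108091792 (minus strand) for PSMD10.
PSME4: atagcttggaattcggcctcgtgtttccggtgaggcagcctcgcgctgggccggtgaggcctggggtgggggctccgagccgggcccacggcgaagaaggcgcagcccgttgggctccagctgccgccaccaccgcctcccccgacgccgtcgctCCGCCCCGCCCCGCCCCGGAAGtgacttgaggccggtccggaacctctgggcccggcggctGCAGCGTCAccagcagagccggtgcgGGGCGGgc
PSMG4: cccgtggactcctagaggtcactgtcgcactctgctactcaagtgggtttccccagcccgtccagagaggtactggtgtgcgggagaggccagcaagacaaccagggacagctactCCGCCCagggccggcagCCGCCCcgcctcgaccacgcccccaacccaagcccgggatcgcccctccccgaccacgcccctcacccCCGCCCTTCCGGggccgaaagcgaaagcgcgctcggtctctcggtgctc
PSMD12: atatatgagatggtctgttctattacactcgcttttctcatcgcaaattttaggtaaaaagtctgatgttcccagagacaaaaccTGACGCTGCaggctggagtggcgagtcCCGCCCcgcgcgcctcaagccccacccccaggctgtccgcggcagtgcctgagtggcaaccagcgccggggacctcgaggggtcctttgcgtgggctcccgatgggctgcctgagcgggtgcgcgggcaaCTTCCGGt
PSMD10: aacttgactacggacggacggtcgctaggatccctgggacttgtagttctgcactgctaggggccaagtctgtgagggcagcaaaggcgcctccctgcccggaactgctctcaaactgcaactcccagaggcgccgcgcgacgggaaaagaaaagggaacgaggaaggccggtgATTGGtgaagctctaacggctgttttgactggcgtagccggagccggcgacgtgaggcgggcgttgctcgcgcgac
Counted back from the start, PSME4 holds an element core at -34 to -26 on the opposite strand and PSMD12 one at -165 to -157. PSMG4 and PSMD10 hold none in this window. In PSME4 and PSMG4 the last base of a GC box is the first of the ETS core, and in PSME4 adjoining GC boxes share a base, so those matches overlap.

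Of the 48 PSM genes, 42 had a RefSeq promoter in the table used (300 bases, 250 before and 50 after the start, counting a gene if any of its starts matched). The element core stood in 15 of 42 (35.7%), against 16.1% of all 27305 genes with a promoter. The ETS core stood in 15 of 42 (35.7%, against 12.2%), the GC box in 29 (69%, against 48.3%), the CCAAT box in 20 (47.6%, against 39.7%) and the TATA box in 5 (11.9%, against 14%). These are counts of letters and not of bound sites. The 27305 genes were not limited to those expressed in these cells, and base composition was not matched. Genes with the element core include PSMA4, PSMB3, PSMC4, PSMC5, PSMD1, PSMD3, PSME1, PSMG1 and PSMG2.

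In several genes not called in OTA against control, the libraries of these groups did not overlap. PSMB5 had 225, 221 and 219 FPKM with OTA, each above the controls (194, 180.1 and 159). The log2 difference of PSMB5 was 0.32 (SE 0.16, limma adjusted p = 0.21). PSMD4, a ubiquitin receptor of the base, had 40.0, 42.1 and 40.4 FPKM, above 31.0, 31.2 and 28.7 (log2 difference 0.42, SE 0.20, limma adjusted p = 0.172). PSMD7 went the other way, with 132, 139 and 144 FPKM, below the controls at 197, 178 and 185 (log2 difference -0.43, SE 0.19, limma adjusted p = 0.156). PSMF1 had 37.2, 33.2 and 37.7 FPKM, above 30.8, 31.0 and 29.8 (limma adjusted p = 0.225). PSMB6 and PSMB7, the other catalytic subunits, overlapped, at 8.61 ± 1.56 and 25.5 ± 2.83 FPKM with OTA.

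The spread of combined replicate 3 enters the shared error of this fit. Without that library, 8 of 44 PSM genes were called in OTA against control (5 higher and 3 lower), and 33.9% of all genes. PSMB4, PSMD4, PSMD5 and PSMD13 joined PSMG4 as higher, with limma adjusted p from 0.00649 (PSMD4) to 0.0446 (PSMD5). PSMD7 joined PSME4 and PSMD12 as lower (limma adjusted p = 0.00156). With OTA and control libraries alone in the fit, 10 were called, 7 higher and 3 lower, and 35.7% of all genes. PSMB5 was then higher (limma adjusted p = 0.0199), as were PSMA5 and PSME1. The count was 1 without control replicate 2 or 3 or OTA replicate 1 or 2, with 10.4% to 11.8% of all genes called.

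**Figure D2:**
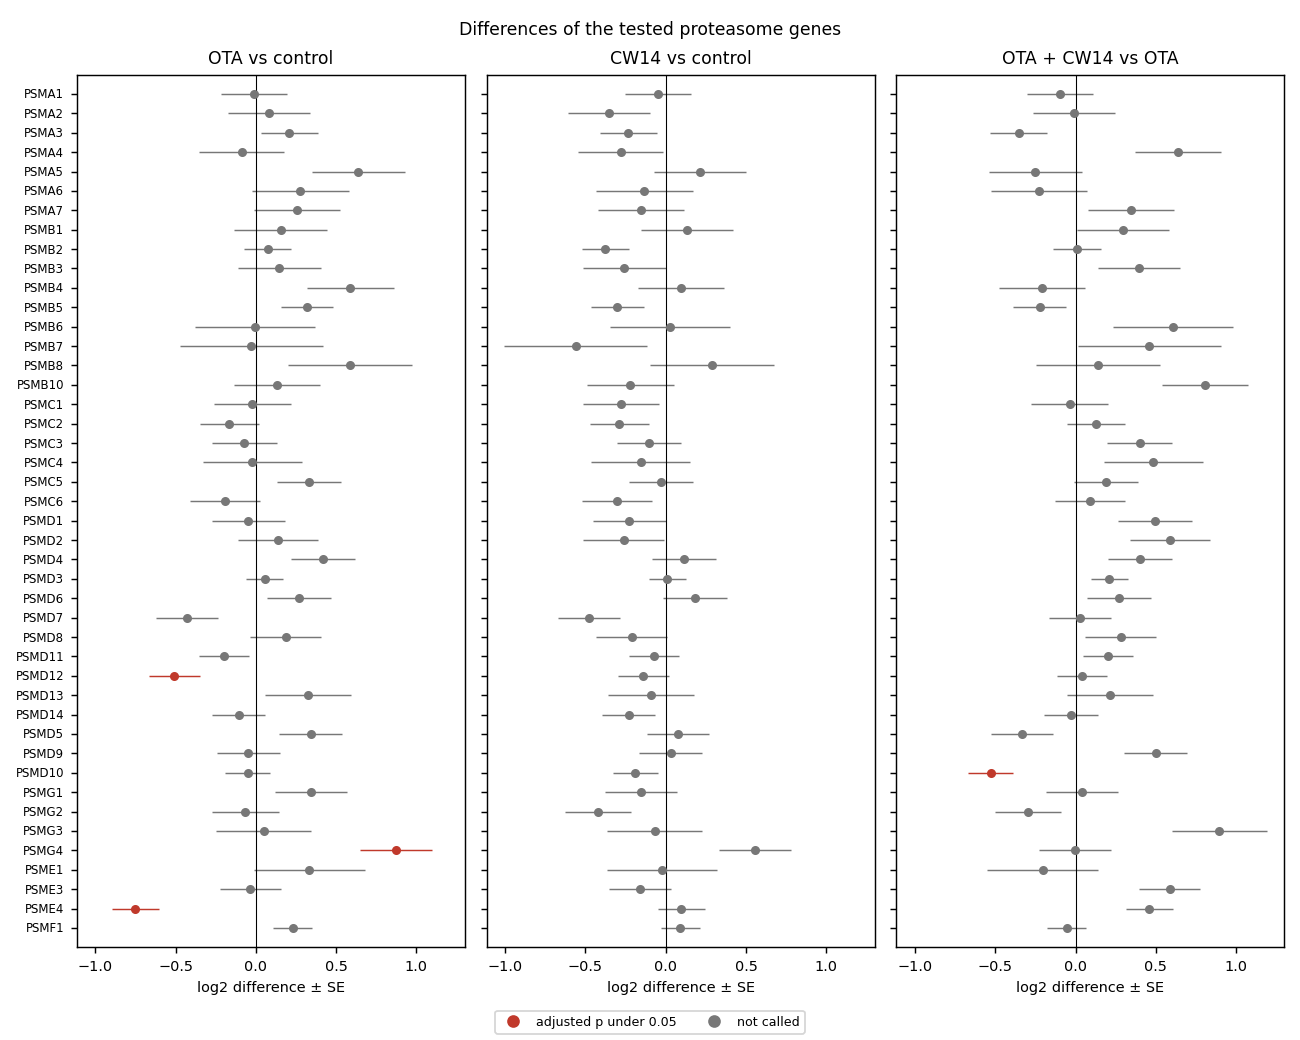
Log2 difference of each tested PSM gene with its SE, in 3 comparisons, with called genes in red (limma, adjusted p under 0.05). PSMG4, PSMD12 and PSME4 are red in OTA against control, no gene is red in CW14 against control, and PSMD10 is red in the combined group against OTA.

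CW14 against control gives the effect of bacteria without toxin. No PSM gene was called (limma, 0 of 44), where 0.364% of all genes were. At an unadjusted p under 0.05 were 858 of all 12928 genes and 3 of the 44 PSM genes. The log2 differences ran from -0.56 to 0.55, with a median of -0.15, against -0.02 over all genes. Without CW14 replicate 3 the median was -0.082. Of the 44, 31 were below 0. In 6 PSM genes all CW14 libraries lay below all controls and in 0 all lay above, 13.6% in all against 20.5% of all genes (9.66% above and 10.9% below). The 6 were PSMA2, PSMA4, PSMB2, PSMC6, PSMD7 and PSMG2. PSMD7 had 144, 133 and 125 FPKM with CW14, against 197, 178 and 185 (log2 difference -0.48, SE 0.19, limma adjusted p = 0.684). Without combined replicate 3 in the fit, PSMD7 was the 1 PSM gene called (limma adjusted p = 0.0152, with 1.01% of all genes called). PSMG2 had 39.1, 41.0 and 35.8 FPKM, against 53.8, 48.8 and 53.8 in controls. PSMB2, a structural beta subunit, had 13.6, 11.7 and 14.8 against 16.6, 18.3 and 17.9.

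The combined group against OTA asks what CW14 changed in the presence of the toxin. Only PSMD10 was called of 44, lower, where 16% of all genes were called, 7.79% higher and 8.22% lower. The groups did not overlap in 9 PSM genes higher and 2 lower (25%), against 34.4% of all genes (17.8% higher and 16.6% lower). PSMD10 had 48.8, 45.7 and 50.6 FPKM with OTA and 37.7, 33.1 and 29.4 in the combined group. Each combined library lay below each OTA and control library, and CW14 replicate 3, at 36.9, lay among them. It fell by 0.53 (SE 0.14, limma adjusted p = 0.0271). The call was lost without any 1 OTA library, with OTA and combined libraries alone in the fit, and in no other alternative (adjusted p up to 0.111). With those libraries alone, only 0.541% of all genes were called. Against control PSMD10 was lower by a log2 difference of -0.58 (SE 0.14, limma adjusted p = 0.0101).

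The median PSM gene was at 0.16 in this comparison, against 0.03 over all genes. Without combined replicate 3 it was at -0.0061, and the calls became 4, 1 higher and 3 lower, with 21.2% of all genes called. Lower were PSMD10 (limma adjusted p = 0.03), PSME1 (0.0328) and PSMG2 (0.013). Higher was PSME3 (limma adjusted p = 0.0111). PSME3 had 48.8, 44.1 and 32.3 FPKM in the combined group, above all 9 other libraries, which lay between 18.5 and 30.1. PSMG2 had 39.3, 28.1 and 59.0 in the combined group against 50.9, 52.6 and 45.9 with OTA, so combined replicate 3 lay on the other side. PSME1 had 16.3, 8.33 and 34.5 against 21.8, 18.3 and 18.9. The count was 9 without combined replicate 2 (20.5%, against 26.2% of all genes) and 2 without CW14 replicate 2 (4.55%, against 14.4%). It was 0 without any 1 OTA library, where 5.12% to 7.26% of all genes were called.

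Combined replicate 3 was the highest of the 12 libraries in 32 of the 44 tested PSM genes (72.7%), and in 30.9% of all tested genes. It lay above both other combined libraries in 34 of 44 (77.3%, against 44.9% of all genes), by a median of 0.64 on the log2 scale, against 0.02. PSMB7 had 27.2, 17.6 and 89.8 FPKM in the combined group and PSMA4 had 89.8, 89.5 and 206. PSMD13 had 32.7, 32.9 and 77.9, and PSMG3 had 38.0, 28.2 and 77.1. In 7 PSM genes it lay below both others, among them PSMB4 at 10.3 (against 25.6 and 20.3), PSMD5 at 10.8 (17.9 and 19.4) and PSMD10. In that library the deviation of a gene from its mean followed the GC content of its longest annotated transcript, with a rank correlation of 0.54 over the 44 PSM genes and 0.49 over 12148 genes. Over the PSM genes this correlation was 0.48 and 0.20 in combined replicates 1 and 2. It lay between -0.56 and -0.070 in the control and CW14 libraries, and was 0.074, -0.097 and -0.18 with OTA. Over all genes it was above 0 only in the combined libraries (0.24, 0.085 and 0.49). The trend thus ran with group, and cannot be told apart from treatment in comparisons of the combined group. Library, depth and base composition are shared by all these points, and the part of GC content was not tested.

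**Figure D3:**
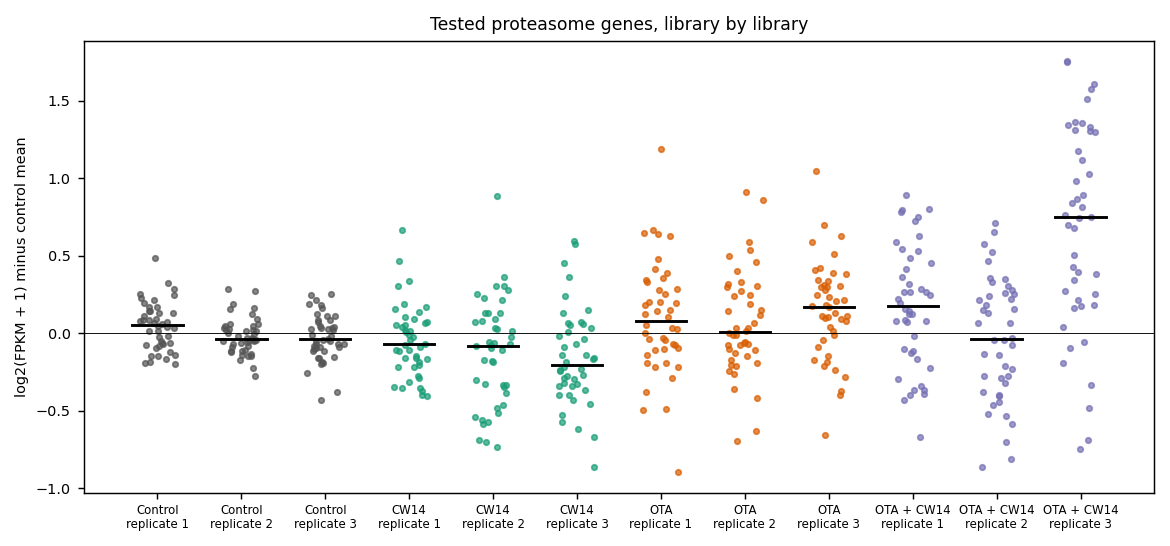
Each tested PSM gene in each library, as log2(FPKM + 1) minus its control mean, with the median of the 44 as a bar. Combined replicate 3 sits above the other 11 libraries, and the other combined libraries sit near the controls.

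The combined group against CW14 asks what the toxin did in the presence of bacteria. Here 11 of 44 PSM genes rose and 0 fell, where 32.3% of all genes were called, 14.8% higher and 17.5% lower. The groups did not overlap in 13 PSM genes higher and 2 lower (34.1%), against 41.8% of all genes (19.9% higher and 21.9% lower). The 11 (25%) included PSMA4 and PSMA7 of 7 alpha ring genes, PSMB2 and PSMB3 of 4 structural beta genes and PSMB10 of 2 tested inducible genes. They also included PSMD1, PSMD2 and PSMD4, the 3 non-ATPases of the base that carry a PSM symbol. The rest were PSMD8 of 8 lid genes, PSMG3 of 4 core chaperones and PSME3 of 3 tested activators. Called were 0 of 6 base ATPases, 0 of 3 constitutive catalytic subunits and 0 of 3 cap chaperones by limma, and not the inhibitor PSMF1. Unadjusted p was under 0.05 for PSMB5, PSMB7, PSMC5 and PSMD10 among these. It was under 0.05 for 19 of the 44 PSM genes and for 5734 of all 12928 genes. The largest log2 difference was that of PSMB10 (1.16, SE 0.27, limma adjusted p = 0.00734). PSMD2, which docks shuttle factors that bring ubiquitinated proteins, had 9.36, 7.35 and 12.2 FPKM with CW14 and 17.9, 13.9 and 30.5 in the combined group (log2 difference 0.99, SE 0.25, limma adjusted p = 0.0115). PSMD4 had 37.6, 31.0 and 30.4 against 47.4, 42.2 and 79.6 (log2 difference 0.71, SE 0.20, limma adjusted p = 0.018).

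The median log2 difference of the 44 was 0.38, against 0.02 over all genes, and 39 of 44 were above 0. Without combined replicate 3 the median was 0.19, and 8 PSM genes were higher and 1 lower, with 33.9% of all genes called. PSMB2, PSMB10, PSMA4, PSMD2, PSMD4, PSME3 and PSMG3 kept their call there, PSMB4 gained it, and PSME4 was lower (log2 difference -0.51, SE 0.13, limma adjusted p = 0.0108). The count of calls fell to 1 without CW14 replicate 2 (2.27%, against 21.5% of all genes). It fell to 6 (13.6%) without CW14 replicate 1 or 3, against 23.5% and 24.7% of all genes. It rose to 17 without combined replicate 2 (38.6%, against 41%). With CW14 and combined libraries alone in the fit it was 0, with 11.8% of all genes called. Controls enter neither group here, but the comparison shares the CW14 libraries with CW14 against control.

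The combined group against control gave 6 higher and 2 lower of 44, where 28.8% of all genes were called, 12% higher and 16.8% lower. The groups did not overlap in 14 PSM genes higher and 3 lower (38.6%), against 41.9% of all genes (19.1% higher and 22.8% lower). Higher were PSMG3, PSMB10, PSMG4, PSMD4, PSMD2 and PSME3, and lower were PSMD10 and PSMD12. Without combined replicate 3 there were 4 higher (PSMB4, PSMD4, PSME3 and PSMG4) and 5 lower (PSMC6, PSMD7, PSMD10, PSME4 and PSMG2), with 32.7% of all genes called. PSMD7 then had the largest fall of the 5 with its combined replicates 1 and 2 at 117 and 114 FPKM, against 197, 178 and 185 in controls (log2 difference -0.68, SE 0.09, limma adjusted p = 0.000167). With replicate 3, at 209 FPKM, PSMD7 was not called. The median of the 44 moved from 0.38 to 0.15. The count of 8 became 3 (6.82%) without control replicate 1 or 2, against 17.5% and 20.6% of all genes. It became 13 without combined replicate 2 (29.5%, against 37%). It was 5 (11.4%) without control replicate 3, CW14 replicate 1, combined replicate 1 or any 1 OTA library, against 20.1% to 26.3%. With control and combined libraries alone in the fit it was 1 (PSMG4), with 12.3% of all genes called.

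The interaction asks whether the toxin acted differently with bacteria. No PSM gene was called (limma, 0 of 44, with 6 at an unadjusted p under 0.05), where 3.33% of all genes were, 1.85% higher and 1.49% lower. The 6 were PSMB10, PSMG3, PSMA4, PSMD2, PSME3 and PSMD1, all with values above 0. Over all 12928 tested genes, 3198 had an unadjusted p under 0.05, a larger share than among PSM genes. Without combined replicate 3 only PSME3 was called (log2 interaction 0.91, SE 0.23, limma adjusted p = 0.0274), where 12.3% of all genes were. Without combined replicate 2 there were 2 calls (4.55%, against 12.3% of all genes). Across the 4 groups, the F test called 10 of 44 PSM genes (22.7%, against 37.5% of all genes): PSMB5, PSMB10, PSMD2, PSMD4, PSMD10, PSMD12, PSME3, PSME4, PSMG3 and PSMG4.

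Genes that work with the proteasome but carry other symbols were read from 5 lists, to be set beside all genes in OTA against control (17.7% called, 4.82% higher and 12.9% lower, median log2 difference 0.03). The lists were chosen with earlier results of these data known, so their shares describe the lists and test nothing. With OTA, 6 of the 9 tested transcriptional control genes (66.7%) fell and 0 rose, with a median log2 difference of -0.89. NFE2L2 (NRF2), the master factor of antioxidant genes, had 241, 178 and 198 FPKM in controls and 53.4, 57.5 and 47.1 with OTA. The difference was -1.94 on the log2 scale (SE 0.18, limma adjusted p = 1.71e-05). MAFF and MAFK, small partners that NFE2L1 and NFE2L2 need to bind DNA, had log2 differences of -2.51 and -1.61, and BACH1, their competitor, one of -1.22, all called lower. NFE2L1 itself had 255, 244 and 247 FPKM in controls and 258, 261 and 282 with OTA, not called (limma adjusted p = 0.606, log2 difference 0.10, SE 0.12). In the combined group it had 206, 203 and 160.01 FPKM, below the 9 other libraries, and was called lower against OTA by a log2 difference of -0.50 (SE 0.12, limma adjusted p = 0.019).

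Of 18 ubiquitin and shuttle genes, 5 (27.8%) fell with OTA and 0 rose, with a median log2 difference of -0.021. UBB, a polyubiquitin gene, overlapped between control and OTA libraries, at 2403 ± 181 and 2355 ± 52.1. SQSTM1 (p62), which ferries ubiquitinated cargo to autophagy, was called lower with a log2 difference of -1.42, as were FAF2 (-1.098) and UBQLN2 (-0.94). Of 15 partners, 3 (20%, near the share of all genes) fell and 0 rose, with a median of -0.22: ZFAND5 (log2 difference -1.42), AKIRIN2, which brings proteasomes into the nucleus (-1.20), and PITHD1 (-0.49). The core assembly chaperone POMP was at 20.5 ± 1.34 in controls and 21.8 ± 1.77 with OTA and was not called. Of 10 class I presentation genes, IRF1 fell by 1.50 and the other 9 were not called (10% called, median 0.25). Of 9 subunits of the COP9 signalosome, a complex related to the lid, 0 were called by limma (0 at an unadjusted p under 0.05), with a median of 0.20.

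With CW14 alone, limma called 0 genes of the 5 lists and 0.364% of all genes. At an unadjusted p under 0.05 were 7 of the 61 and 858 of all 12928 genes. In the combined group against CW14, 32.3% of all genes were called, 14.8% higher and 17.5% lower, with a median of 0.02. Transcriptional control genes had 1 higher and 7 lower of 9 (88.9% called, median -1.42), and ubiquitin and shuttle genes 3 and 6 of 18 (50% called, median -0.070). Partners had 1 and 2 of 15 (20%, median -0.047), class I genes 0 and 1 of 10 (10%, median -0.11) and COP9 subunits 3 and 1 of 9 (44.4%, median 0.44). PAAF1, a chaperone of the base, was the partner called higher, with 7.43, 13.6 and 12.7 FPKM with CW14 and 18.9, 19.5 and 37.2 in the combined group. GPS1, the COP9 subunit with the largest rise, had 14.0, 11.7 and 13.3 against 28.9, 24.3 and 61.8. In both genes combined replicate 3 was again the highest.

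**Figure D4:**
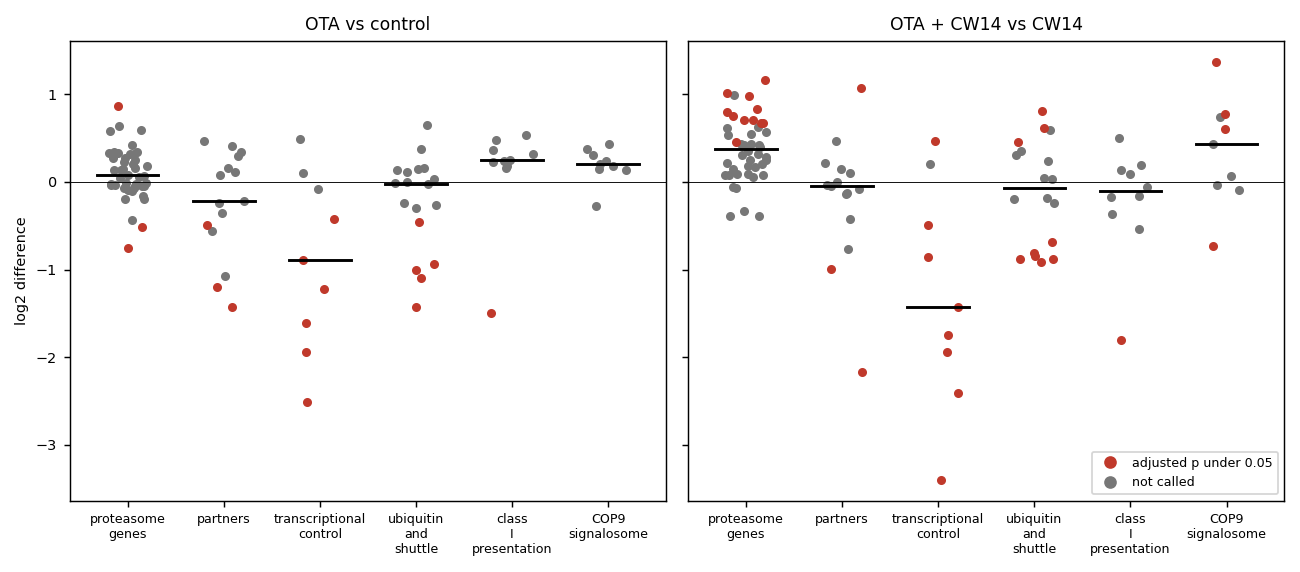
Log2 differences of the tested PSM genes and of 5 lists of related genes with OTA against control (left) and in the combined group against CW14 (right), each with its median as a bar and called genes in red. PSM genes lie near 0 on the left with 3 called, while 6 of 9 transcriptional control genes are called lower. The lists were chosen with earlier results of these data known.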

How the data were processed

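The authors deposited 1 FPKM value per gene and library. The submitters' processing notes name cutadapt 1.10, TopHat2 2.0.13, Cufflinks 2.2.1, Cuffnorm, Cuffdiff and build hg19. What each tool did, which annotation was used and how libraries were scaled is not given in the sources used here. No label says that the kit marks strand. Groups and replicate numbers come from the sample titles. Members and lists were chosen with earlier results of these data known.

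Values were analysed as log2(FPKM + 1), which understates changes of low genes, for genes averaging 1 FPKM or more over 12 libraries. Group means were estimated with limma 3.58.1 in R 4.3.3 (intensity trend, 8 residual degrees of freedom, two-sided), sharing 1 error over all libraries, with Benjamini-Hochberg adjustment over all tested genes. The script was tested on simulated data. Library values were given for up to 6 called members per direction in OTA against control, CW14 against control, combined against OTA and the interaction, and for catalytic, inducible, activator and inhibitor genes. From each list, up to 4 called genes with the largest difference, and NFE2L1, were named. One gene that this rule picks is not reported here. Any other gene named was chosen after its values were seen. No 2 libraries were identical, and same-numbered libraries were not paired. The 19 alternatives changed the pseudocount, filter, scaling, libraries fitted or block, or left out 1 library.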

Additional observations from a re-analysis of the deposited data

How the results depend on the processing

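A count of called PSM genes rests on a shared error to which combined replicate 3 adds, and on 3 libraries a group. With only the compared groups in the fit, the counts were 10 (OTA against control), 0 (combined against OTA), 0 (combined against CW14) and 1 (combined against control). In that order, 35.7%, 0.541%, 11.8% and 12.3% of all genes were called there. Without a filter on low values they were 7 for combined against CW14 (14.9%, against 19.1% of all genes). For combined against control they were 5 (10.6%, against 16.8%). For combined against OTA, the count of 1 became 2 with a pseudocount of 0.1 (15.8% of all genes). It became 3 after quantile normalization (15.6% of all genes) and 3 with upper-quartile scaling (15.8%). With a replicate block that count was 2 (14% of all genes). Same-numbered libraries did not deviate together: of 18 pairs, 1 had a correlation over 0.1 (range -0.15 to 0.15), and 3 correlated best with their own number. No interaction could be fitted on compared groups alone. The block moved no other count by over 1.5 times. Median-centring moved the median of all genes in OTA against control by 0.105.

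Leaving out each library in turn gave counts of 1 to 8 for OTA against control, with 10% to 33.9% of all genes called. Counts were 0 to 1 for CW14 against control (0.0309% to 1.01%) and 0 to 9 for combined against OTA (5.12% to 26.2%). For combined against CW14 they were 1 to 17 (21.5% to 41%), and for combined against control 3 to 13 (17.5% to 37%). The interaction gave 0 to 2 (0.131% to 12.3%). Medians of the tested PSM genes ran from 0.19 to 0.54 (combined against CW14), 0.15 to 0.48 (combined against control) and 0.084 to 0.41 (interaction), each lowest without combined replicate 3, as was combined against OTA (-0.0061 to 0.27). They ran from 0.069 to 0.12 for OTA against control and from -0.18 to -0.082 for CW14 against control. Of 23 calls of a PSM gene in a comparison, 0 changed direction in the 19 alternatives and 2 passed the test in each: PSME4 in OTA against control and PSMG4 in the combined group against control. The causes were not tested.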

Other observations

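Several PSM rows have an antisense partner in the table. Those of PSMD5 and PSMG3 lie outside the deposited locus of their gene. Where partners overlap, fragments from bases that both cover cannot be told apart without strand. PSMA3-AS1, which shares its deposited locus with PSMA3, had 28.2, 29.3 and 28.4 FPKM in controls, 35.1, 31.0 and 37.1 with CW14, 31.7, 33.5 and 32.8 with OTA and 35.5, 45.5 and 28.8 in the combined group. PSMA3 itself was at most 2.10 FPKM. PSMD6-AS2 had 2.07, 2.51 and 2.18 FPKM in controls and 4.08, 4.70 and 4.75 with CW14, with no overlap, while PSMD6 had 8.95, 9.12 and 9.27 and 8.32, 11.5 and 12.0. PSMB8 shares its locus with TAP1, a peptide transporter of class I presentation, which was at 1.24 to 3.88 FPKM in the 12 libraries.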
